A study of Mus musculus with 12 samples.

Results

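10 genes of the glucocorticoid pathway, *Fkbp5*, *Tsc22d3*, *Per1*, *Sgk1*, *Zbtb16*, *Klf9*, *Nr3c1*, *Hsd11b1*, *Errfi1* and *Mt1*, were followed across 12 mouse lung tumors. All 10 were found by symbol among the 39017 genes of the deposited count table and all 10 passed the filter on low counts. *Fkbp5* was chosen by its lower counts in tumors with floxed *Glut1*, and the others as known members of the pathway, so that difference of *Fkbp5* is given here as a description with no test, and the question asked of the other 9 genes is whether they shared it. The data did not show that they did. *Fkbp5* was at 15.0 to 22.9 CPM (read counts scaled to a common library size, with TMM as a correction for library composition) in the 6 floxed tumors and at 33.2 to 57.8 CPM in the other 6, whereas none of the other 9 genes separated the genotypes or passed the test. Of all 16527 genes tested, only 0.188% separated the genotypes and 0.0484% passed, so the absence of both among 9 genes says little.

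Glucocorticoids such as corticosterone enter the cell and bind the glucocorticoid receptor, which the gene *Nr3c1* encodes and which chaperones of the Hsp90 family hold ready for the hormone. The bound receptor moves to the nucleus and switches on genes that carry glucocorticoid response elements. *Fkbp5* is among the targets and encodes a co-chaperone that lowers the affinity of the receptor for hormone, a feedback loop known from many tissues. In lung, glucocorticoids are known for driving alveolar maturation and surfactant production before birth and for damping inflammation.

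The tumors came from C57BL/6 mice that all carried K-ras LSL-G12D/WT, p53 Fl/Fl and the CCSP-rtTA transgene and all received Lenti.TRE-PPARaD13_PGK-Cre into the lungs at 6000 viral units. This vector carries Cre under the PGK promoter and a dominant negative PPARα, PPARαΔ13, under a promoter that needs doxycycline and rtTA, and the CCSP promoter that drives rtTA is a promoter of club cells, the secretory cells of the airway. The groups were KP and KPG1, the latter with Glut1 Fl/Fl in addition, on regular diet, and KP-PPARαΔ13 and KPG1-PPARαΔ13, the same genotypes after 15 days on a diet with doxycycline at 625 mg/kg. Each group had 3 tumors, taken at 26 weeks after initiation and depleted of CD45-positive immune cells, so doxycycline and PPARαΔ13 changed together in this design. The label numbers read as mouse numbers give 9 mice. The 6 tumors without floxed *Glut1* (KP and KP-PPARαΔ13) came from 5 of them and the 6 with it (KPG1 and KPG1-PPARαΔ13) from 4. Some tumors thus share an animal, and p-values over tumors may be too small. The paper states that its control mice were wild-type or heterozygous for the floxed *Glut1* allele, so tumors called here without floxed *Glut1* are those that were not Fl/Fl. On regular diet all 3 KP tumors were female and all 3 KPG1 tumors male, so that genotype and sex cannot be told apart there. On doxycycline both genotypes held both sexes, with 2 males in KP-PPARαΔ13 and 1 in KPG1-PPARαΔ13. From regular diet to doxycycline, males thus went from 0 to 2 in one genotype and from 3 to 1 in the other. The interaction of genotype and doxycycline is therefore mixed with sex.

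Total counts per tumor ranged from 25263794 to 32654223 and the members had at least 331 counts in every tumor, except *Zbtb16* and *Hsd11b1*, which fell to 4 and 33 counts in their lowest tumors. The level of *Slc2a1*, the gene of Glut1, followed the labels on doxycycline only: KPG1-PPARαΔ13 tumors were at 43.8 ± 17.4 CPM and all below the KP-PPARαΔ13 tumors at 125 ± 23.9 CPM, whereas on regular diet KPG1 tumors were at 44.7 ± 17.4 CPM and KP tumors at 44.9 ± 11.5 CPM (SD, n = 3 each). Over both diets its log2 fold change was -0.76 (SE 0.252, unadjusted p = 0.0114, adjusted p = 0.976 by edgeR). *Ppara*, which PPARαΔ13 should raise, was at 2.71, 64.6 and 246 CPM in KP-PPARαΔ13 against 9.54 to 15.7 CPM in KP, so the library labelled KP-PPARαΔ13 replicate 1 went against its label. In KPG1-PPARαΔ13 it was at 8.90, 19.2 and 17.7 CPM, which overlaps the KPG1 range of 7.24 to 15.3 CPM, with replicate 1 inside that range. The counts cover all exons, and reads from outside a deleted part or from unrecombined cells would be counted too, which was not tested, so the genotypes are used below as labelled. All 7 alveolar type 2 markers were detected, with a summed level of 22900 to 73450 CPM, and epithelial markers summed to 2444 to 5608 CPM, as against 33.0 to 78.7 CPM for leukocyte markers.

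The promoter windows of the members show where a receptor-responsive sequence stands beside a start site in this gene group. RefSeq windows from 250 bases before to 50 after a start (GRCm38.p6, the assembly of mm10) were matched for 8 of the 10 members, with 17 windows in all because some genes have several starts. The full palindromic element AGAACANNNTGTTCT was searched on both strands, as were its relaxed form GNACANNNTGTNC, which every full match also holds, the E-box CACGTG bound by clock factors, and the metal response core TGCGCNC with its variant TGCACNC. The 4 windows shown are those of *Fkbp5* itself and of the members with a receptor element or an E-box in a window. Capitals mark the matches.

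Fkbp5, chr17:28486100-28486399, minus strand: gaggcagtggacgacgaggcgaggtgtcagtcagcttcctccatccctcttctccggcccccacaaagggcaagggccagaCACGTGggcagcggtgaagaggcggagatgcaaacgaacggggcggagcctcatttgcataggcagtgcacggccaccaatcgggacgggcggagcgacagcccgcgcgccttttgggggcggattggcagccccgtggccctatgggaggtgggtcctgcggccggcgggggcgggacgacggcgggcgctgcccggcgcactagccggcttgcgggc
Sgk1, chr10:21993640-21993939, plus strand: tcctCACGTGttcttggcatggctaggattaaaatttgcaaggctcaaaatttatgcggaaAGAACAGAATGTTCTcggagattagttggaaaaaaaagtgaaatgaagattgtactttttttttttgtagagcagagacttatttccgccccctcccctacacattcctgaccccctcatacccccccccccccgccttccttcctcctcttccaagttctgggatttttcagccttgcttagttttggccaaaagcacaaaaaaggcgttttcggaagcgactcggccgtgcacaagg
Mt1, chr8:94178839-94179138, plus strand: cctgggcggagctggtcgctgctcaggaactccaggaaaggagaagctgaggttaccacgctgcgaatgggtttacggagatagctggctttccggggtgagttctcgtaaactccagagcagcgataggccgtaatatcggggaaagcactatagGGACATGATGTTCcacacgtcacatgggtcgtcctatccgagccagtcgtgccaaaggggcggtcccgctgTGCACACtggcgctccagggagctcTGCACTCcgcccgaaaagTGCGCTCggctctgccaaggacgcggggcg
Per1, chr11:69098699-69098998, plus strand: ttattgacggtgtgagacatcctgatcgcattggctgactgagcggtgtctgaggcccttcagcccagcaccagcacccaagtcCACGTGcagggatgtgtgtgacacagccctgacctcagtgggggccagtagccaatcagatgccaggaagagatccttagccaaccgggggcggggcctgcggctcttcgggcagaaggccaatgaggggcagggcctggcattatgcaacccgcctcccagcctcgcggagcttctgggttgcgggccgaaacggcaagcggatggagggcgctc

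The *Sgk1* window holds the full element at -189 to -175 from the start, a sequence found in 3 of the 32851 promoters of the table (0.00913%), and an E-box at -246 to -241. The *Mt1* window holds a relaxed element at -94 to -82, which 0.475% of promoters hold, and metal response cores at -23 to -17, 3 to 9 and 21 to 27, on a background of 15.4% of promoters for TGCGCNC and 12.6% for TGCACNC. *Fkbp5* and *Per1* each have an E-box, at -169 to -164 and -166 to -161, which 7.15% of promoters hold. No receptor element of either form was found in the *Fkbp5* window, which says only that these letters are not in these 300 bases; the known elements of the gene lie in introns, which were not analysed here. The *Fkbp5* start of this window lies inside the longer GENCODE gene, chr17:28399094-28517527 on the minus strand, and 12 of the 17 windows had their last 50 bases in a GENCODE transcript.

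*Fkbp5* (ENSMUSG00000024222) was at 53.0, 40.0 and 33.2 CPM in the 3 KP tumors and at 49.3, 40.6 and 57.8 CPM in the 3 KP-PPARαΔ13 tumors. It was at 22.9, 16.1 and 15.7 CPM in the 3 KPG1 tumors and at 15.0, 17.5 and 22.9 CPM in the 3 KPG1-PPARαΔ13 tumors. Every floxed tumor was therefore below every tumor of the other genotype, on either diet. The group means ran from 49.2 ± 8.61 CPM in KP-PPARαΔ13 and 42.1 ± 10.1 CPM in KP to 18.5 ± 4.03 CPM in KPG1-PPARαΔ13 and 18.2 ± 4.01 CPM in KPG1 (SD, n = 3 each). The 2 groups of a genotype overlapped, so the order within a genotype is not larger than the spread. Averaged over both diets the level in floxed tumors was 0.404 times that of the others, a log2 fold change of -1.31 with a standard error of 0.183 and a 95% interval of -1.71 to -0.91. This contrast chose the gene; over all genes, 8 of 16527 were past an adjusted p of 0.05 in it (0.0484%), and 15 had 6 floxed tumors wholly below the other 6 (0.0908%).

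**Figure D1:**
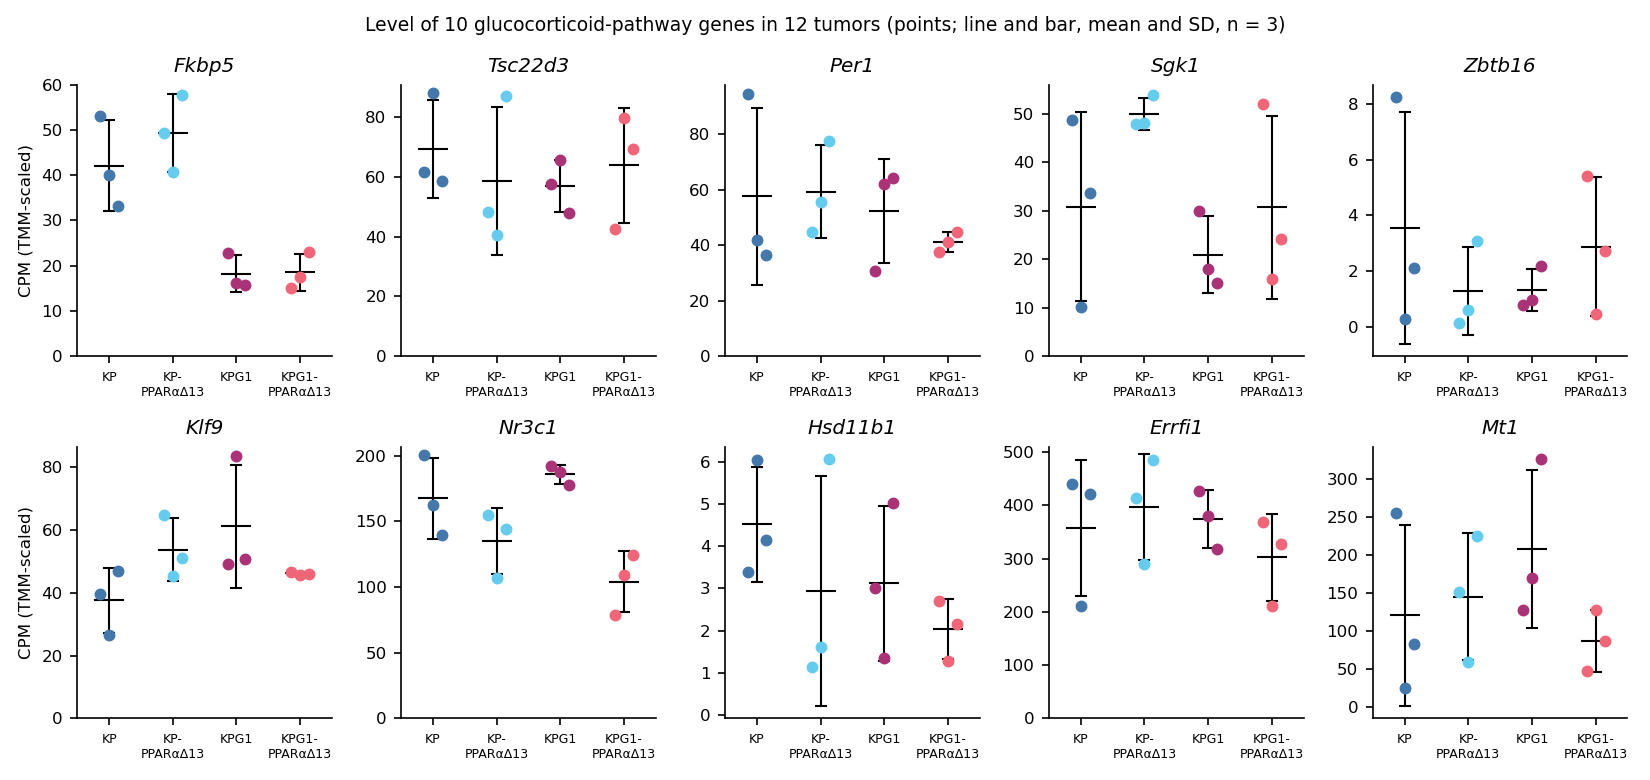
Level in CPM of the 10 genes in each of the 12 tumors (points) by group on the x axis, with the mean (line) and SD (bar) of the 3 tumors. *Fkbp5* lies between 15.0 and 22.9 CPM in all 6 KPG1 and KPG1-PPARαΔ13 tumors and between 33.2 and 57.8 CPM in the other 6. Every other gene shown has overlapping genotypes, as all but 0.188% of the genes tested do.

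With tumors of a mouse averaged, *Fkbp5* lay at 15.7 to 19.5 CPM in the 4 floxed mice and at 33.2 to 57.8 CPM in the other 5. Among doxycycline-fed mice, where sex varies within genotype, females were at 15.0 to 22.9 CPM in KPG1-PPARαΔ13 (n = 2) against 40.6 CPM in KP-PPARαΔ13 (n = 1), and males were at 17.5 CPM (n = 1) against 49.3 to 57.8 CPM (n = 2). Since all 12 tumors were already separated by genotype, these splits could not overlap and give no support of their own. As a description of the value that chose the gene, its log2 fold change was -1.41 to -1.21 with each tumor left out in turn and -1.35 to -1.30 under the other settings that tested it. In bulk tissue, fewer cells that express *Fkbp5* and less of its RNA per cell cannot be told apart.

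The classical targets of the receptor come next. *Tsc22d3*, which encodes the anti-inflammatory leucine zipper protein Gilz and is among the most uniform glucocorticoid targets known, was at 61.6, 88.2 and 58.5 CPM in KP and at 48.2, 40.6 and 87.0 CPM in KP-PPARαΔ13. It was at 57.6, 65.5 and 48.0 CPM in KPG1 and at 42.5, 79.7 and 69.4 CPM in KPG1-PPARαΔ13. High and low tumors occurred in both genotypes, and the log2 fold change between them was -0.08 (SE 0.226, 95% interval -0.58 to 0.41, adjusted p = 0.989 by edgeR's quasi-likelihood test over all genes). The interval leaves out a change as large as that of *Fkbp5*.

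*Per1*, a repressor of the circadian clock that glucocorticoids induce rapidly, had 36.4, 50.2 and 94.6 CPM as its lowest, median and highest values in the 6 tumors without floxed *Glut1* and 30.6, 42.9 and 64.4 CPM in the 6 with it (log2 fold change -0.33, SE 0.272, interval -0.93 to 0.26, adjusted p = 0.976), and without KP replicate 1, its highest tumor, the log2 fold change was -0.05. *Klf9*, a zinc finger transcription factor, was with *Mt1* the only member whose fitted level was higher in floxed tumors, with 26.4, 46.1 and 64.7 CPM against 45.8, 47.9 and 83.6 CPM (0.24, SE 0.188, interval -0.17 to 0.65, adjusted p = 0.976). Both intervals hold 0 and lie above the *Fkbp5* value of -1.31.

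*Sgk1*, a kinase that raises sodium transport and carries the full element printed above, was at 48.7, 10.04 and 33.6 CPM in KP and at 47.9, 48.1 and 53.8 CPM in KP-PPARαΔ13. It was at 29.9, 17.9 and 15.0 CPM in KPG1 and at 52.0, 15.8 and 24.2 CPM in KPG1-PPARαΔ13. The lowest of the 12 tumors was a KP tumor and the second highest a KPG1-PPARαΔ13 tumor, so the genotypes overlapped. Its log2 fold change of -0.63 (SE 0.378, interval -1.46 to 0.20, adjusted p = 0.976) was the lowest among the 9 genes, moved to -0.38 without KP replicate 1 and to -0.94 without KPG1-PPARαΔ13 replicate 1, and the interval is too wide to separate it from either no change or the *Fkbp5* value.

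*Zbtb16*, a transcription factor with very large responses to glucocorticoids in some tissues, was at 0.137, 1.37 and 8.25 CPM (lowest, median, highest) in the 6 tumors without floxed *Glut1* and 0.448, 1.57 and 5.42 CPM in the floxed 6. With a 60.2-fold range over the 12 tumors its log2 fold change of -0.13 had a standard error of 0.85 and an interval of -1.99 to 1.73 (adjusted p = 0.995), and says little in either direction. *Errfi1*, a feedback inhibitor of the EGF receptor, was far steadier, at 212, 417 and 486 CPM against 212, 348 and 427 CPM (log2 fold change -0.16, SE 0.222, interval -0.65 to 0.33, adjusted p = 0.985). *Mt1*, a metallothionein induced by zinc as well as by glucocorticoids, ran from 24.8 to 255 CPM in tumors without floxed *Glut1* and from 47.1 to 326 CPM with it, with medians of 117 and 128 CPM (0.02, SE 0.513, interval -1.10 to 1.15, adjusted p = 0.999). *Errfi1* and *Mt1* thus had intervals that leave out the *Fkbp5* value, and *Zbtb16* did not. KP replicate 2 held the lowest of the 12 values for *Sgk1*, *Klf9* and *Mt1*.

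The receptor and the enzyme that supplies its hormone were measured in the same tumors. *Nr3c1*, the receptor gene, was at 201, 162 and 139.6 CPM in KP, 155, 107 and 144 CPM in KP-PPARαΔ13, then 192, 187 and 177 CPM in KPG1 and 78.5, 109 and 124 CPM in KPG1-PPARαΔ13. The genotypes overlapped widely, with a log2 fold change of -0.12 (SE 0.153, interval -0.45 to 0.22, adjusted p = 0.985), the narrowest interval of the 10 genes. *Hsd11b1*, which regenerates active corticosterone inside cells, was low, with 1.13, 3.76 and 6.06 CPM against 1.28, 2.42 and 5.02 CPM (-0.53, SE 0.464, interval -1.55 to 0.49, adjusted p = 0.976).

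Of the 9 genes beside *Fkbp5*, 7 had a negative and 2 a positive log2 fold change between genotypes, with a median of -0.13 against -0.01 over all 16527 genes tested. None of the 9 passed an adjusted p of 0.05, as 0.0484% of all genes did, and none had an unadjusted p under 0.05, against 4.53% of all genes. Nor did any of the 9 pass in the 21 alternative settings, DESeq2 and limma voom included. None separated the 6 floxed from the 6 other tumors, as 0.188% of all genes did. All 9 intervals held 0. For 6 of the 9 the interval lay wholly above the *Fkbp5* value, and for 5 of the 9 it lay above -1. For *Sgk1*, *Zbtb16* and *Hsd11b1* a change of the *Fkbp5* size was within the interval. The *Fkbp5* value chose the gene, so it may overstate the difference, and it has an interval of its own, -1.71 to -0.91. The intervals of *Per1*, from -0.93, and *Mt1*, from -1.10, overlap that one, so these comparisons with a single value are descriptions.

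**Figure D2:**
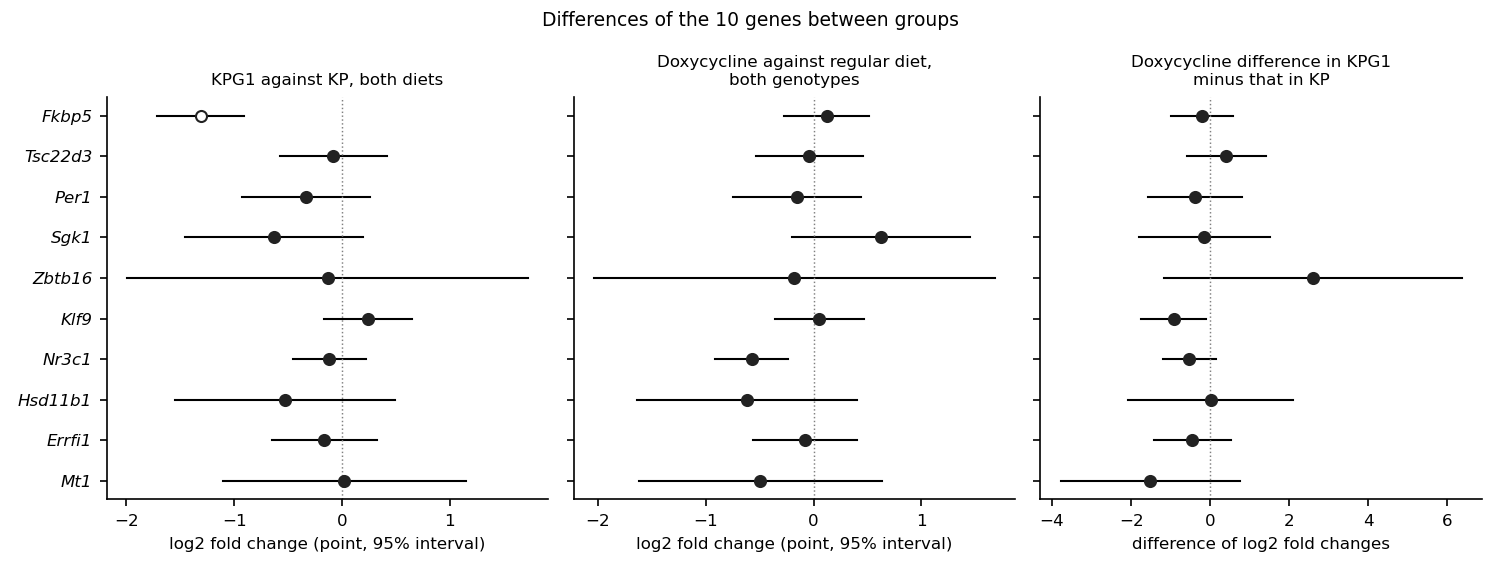
Log2 fold change (point) and 95% interval (line) of the 10 genes for KPG1 against KP tumors over both diets (left), doxycycline against regular diet over both genotypes (middle) and the difference of the doxycycline effect between genotypes (right). *Fkbp5* (open point, the contrast that chose it) lies at -1.31 on the left, where all other intervals hold 0; in the middle panel *Nr3c1* at -0.57 and in the right panel *Klf9* at -0.92 have intervals that do not hold 0, but neither passes the adjusted test.

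Levels per exon length set the scale of these genes. TPM here is a level corrected for the joint length of all GENCODE exons of a gene, which can exceed that of its transcripts. The mean TPM over the 12 tumors was 381 for *Mt1*, 342 for *Errfi1*, 66.2 for *Nr3c1*, 49.6 for *Tsc22d3*, 35.1 for *Klf9*, 32.0 for *Per1*, 23.2 for *Sgk1*, 11.7 for *Fkbp5*, 2.57 for *Hsd11b1* and 1.46 for *Zbtb16*. *Fkbp5* was the eighth of the 10 on this scale, and its exon length of 9468 bases was the longest of the 10, which lowers its TPM. Within groups *Nr3c1* and *Fkbp5* had the smallest spread, with a pooled SD of 0.259 and 0.302 on the log2 CPM scale, followed by *Klf9* at 0.33, while *Mt1* at 1.09 and *Zbtb16* at 1.78 had the widest. The interval of a difference follows this spread.

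On doxycycline, with PPARαΔ13, *Fkbp5* had a log2 fold change of 0.12 against regular diet (SE 0.181, 95% interval -0.27 to 0.52, adjusted p = 0.873). Of the 10 genes none passed the edgeR test, whose background was 3 of 16527 genes (0.0182%), and 1, *Nr3c1*, had an unadjusted p under 0.05, against 10.1% of all genes. *Nr3c1* had a log2 fold change of -0.57 (SE 0.154, interval -0.91 to -0.24, unadjusted p = 0.0031, adjusted p = 0.29). DESeq2 called it, at -0.57 with an adjusted p of 0.0479, in a setting that called 286 genes; over all alternatives the adjusted p ran from 0.0479 to 0.526 and the fold change from -0.65 to -0.49. In KPG1 the 3 tumors on doxycycline (78.5 to 124 CPM) were all below the 3 on regular diet (177 to 192 CPM), a separation downward that 9.41% of all genes also had, while in KP the diets overlapped. *Klf9* and *Mt1* were also lower in all 3 KPG1-PPARαΔ13 than in all 3 KPG1 tumors.

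Among the other members, *Sgk1* had the highest fitted value with doxycycline, 0.63 (SE 0.378, adjusted p = 0.617), and *Hsd11b1* the lowest, -0.62 (SE 0.464, adjusted p = 0.705). *Mt1* was at -0.49 (SE 0.515, adjusted p = 0.809). The remaining 5, *Tsc22d3*, *Per1*, *Zbtb16*, *Klf9* and *Errfi1*, lay between -0.18 and 0.05 with adjusted p-values of 0.898 to 0.971. None of the 10 genes separated the 6 tumors on doxycycline from the 6 on regular diet, as 0.49% of all genes did.

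No difference between diets was detected in the genotype effect on *Fkbp5*, with an interaction of genotype and doxycycline of -0.21 (SE 0.361, adjusted p = 0.843). Sex shifted with diet in opposite directions in the 2 genotypes, so every interaction given here is mixed with sex. *Klf9* was the only member with an unadjusted p under 0.05 for the interaction, against 11.8% of all genes (-0.92, SE 0.376, interval -1.75 to -0.10, adjusted p = 0.399). Its levels were 39.4, 26.4 and 46.9 CPM in KP, 64.7, 45.2 and 51.2 CPM in KP-PPARαΔ13. They were 49.1, 83.6 and 50.7 CPM in KPG1 and 46.7, 45.8 and 45.9 CPM in KPG1-PPARαΔ13. On regular diet the 3 KPG1 tumors were thus above the 3 KP tumors, as 4.82% of all genes were, and on doxycycline the genotypes overlapped. *Zbtb16* had the largest value, 2.59, with a standard error of 1.72 (adjusted p = 0.555), followed by *Mt1* at -1.52 (SE 1.03, adjusted p = 0.565). With sex as a covariate the *Mt1* value was 0.32. *Tsc22d3* (0.41), *Per1* (-0.39), *Sgk1* (-0.15), *Nr3c1* (-0.53), *Hsd11b1* (0.01) and *Errfi1* (-0.46) had adjusted p-values of 0.505 to 0.999. No gene passed this test in edgeR or limma voom (0 of 16527), where 1952 had an unadjusted p under 0.05, and DESeq2 called 286, none of them a member.

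Further genes of the pathway were taken from lists. Of 24 other genes known to rise with glucocorticoids in some tissue, 21 passed the filter. None was called between genotypes, where only 0.0484% of all genes were, so the absence of calls says little about the list. In floxed tumors 14 were lower and 7 higher (66.7% lower, against 52.2% of all genes), with a median log2 fold change of -0.11. The lowest were *Il1r2*, a decoy receptor for interleukin 1 (-1.32, SE 0.74), *Scnn1a*, a subunit of the epithelial sodium channel (-0.70, SE 0.632), and *Dusp1*, a phosphatase of MAP kinases (-0.69, SE 0.408), each with an adjusted p of 0.976. *Il1r2* had few reads, 2 to 72 counts per tumor. The highest was *Cdkn1c*, a cell cycle inhibitor, at 1.82 (SE 0.588, unadjusted p = 0.00988, adjusted p = 0.976), with 18.9, 24.5 and 223 CPM as its lowest, median and highest in floxed tumors against 11.8, 15.0 and 33.1 CPM. *Fbxo32*, a ubiquitin ligase subunit (0.32, SE 0.249), and *Fam107a* (0.27, SE 0.469, at only 3 to 20 counts per tumor) followed. *Trim63*, *Tat* and *Pck1*, targets in muscle and liver, had at most 7 counts in any tumor and were not tested.

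Partners of the receptor were described in the same way. Of 21 related receptors, chaperones, coregulators and steroid enzymes 19 were tested and none was called, against 0.0484% of all genes. Of the 19, 14 were lower and 5 higher (73.7% lower, against 52.2% of all genes), with a median of -0.09. *Hsp90aa1*, the inducible Hsp90 (-0.55, SE 0.344), *Hsd11b2*, which inactivates corticosterone (-0.39, SE 0.34), and *Ptges3*, the co-chaperone p23 (-0.36, SE 0.247), were lowest. *Esr1*, the estrogen receptor (1.09, SE 0.595), *H6pd*, which feeds cofactor to the *Hsd11b1* enzyme (0.21, SE 0.196), and *Ppp5c*, a phosphatase of the receptor complex (0.18, SE 0.118), were highest. Of these, *Esr1* had only 4 to 43 counts per tumor. With doxycycline the medians of these 2 lists were 0.03 and -0.08 and no gene was called, against 0.0182% of all genes. Among 14 tested clock genes 6 were lower and 8 higher between genotypes, with a median of 0.02 and a range from *Bhlhe41* (-1.36) to *Npas2* (0.68). In the metallothionein and zinc list 3 of 4 tested genes were lower, from *Slc30a1*, a zinc exporter (-0.11), to *Slc39a10*, a zinc importer (0.16), at a median of -0.08.

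**Figure D3:**
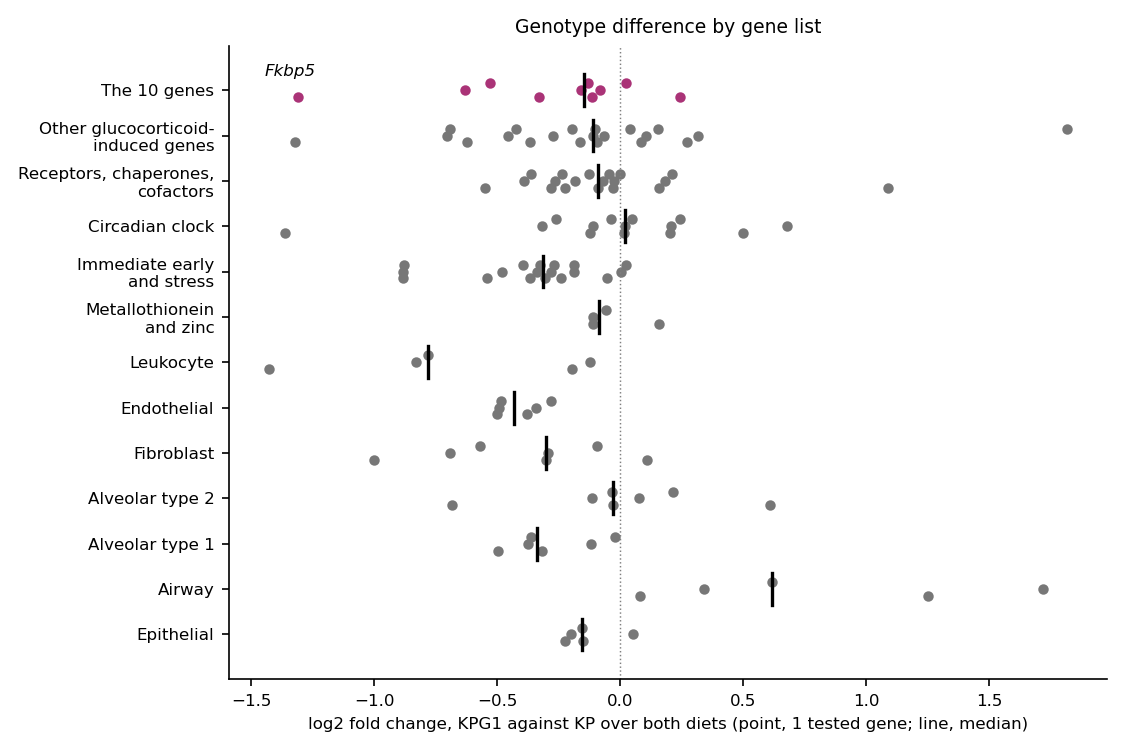
Log2 fold change between genotypes over both diets for each tested gene (points) of the gene lists, with the list median (line). *Fkbp5*, which was chosen by this contrast, is at -1.31, and the other 9 genes run from -0.63 to 0.24. Other lists hold values as low, down to *S100a8* at -1.43. The medians of the other glucocorticoid-induced genes and the receptor's partners are -0.11 and -0.09.

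Markers of other cells and genes of tissue handling lay mostly lower in floxed tumors without passing the test, and their part in the *Fkbp5* difference was not tested. Of 18 immediate early and stress genes that rise when tissue is dissociated 16 were lower in floxed tumors (88.9%, against 52.2% of all genes), with a median of -0.32 and a range from *Fosl1* (-0.88) to *Hspa1a* (0.02, a gene with the near-identical copy *Hspa1b*), and their summed level was 2490 to 5838 CPM without and 1325 to 5656 CPM with floxed *Glut1*. All 5 tested leukocyte markers were lower (median -0.78, *S100a8* at -1.43 to *Itgam* at -0.12), with sums of 37.7 to 78.7 and 33.0 to 47.5 CPM. Counts of *S100a8* were only 2 to 69 per tumor. All 6 endothelial markers (median -0.43, *Kdr* at -0.50 to *Pecam1* at -0.28, sums of 87.6 to 531 and 108 to 316 CPM), 6 of 7 fibroblast markers (median -0.30, *Dcn* at -1.003 to *Pdgfra* at 0.11, sums of 127 to 569 and 98.3 to 384 CPM) and all 6 alveolar type 1 markers (median -0.34, *Aqp5* at -0.50 to *Pdpn* at -0.02, sums of 198 to 2825 and 643 to 2386 CPM) were lower as well. Alveolar type 2 markers had a median of -0.03 (4 of 7 lower, *Napsa* at -0.68 to *Sftpc* at 0.61) and epithelial markers one of -0.16 (4 of 5 lower, *Epcam* at -0.23 to *Nkx2-1* at 0.05). All 5 airway markers were higher (median 0.62, *Tppp3* at 0.08 to *Scgb1a1* at 1.72, sums of 40.6 to 150 and 86.4 to 400.2 CPM). None of these markers was called between genotypes, as 0.0484% of all genes were, and all sums overlapped. No marker of any list separated the 6 floxed tumors from the 6 others, as 0.188% of all genes did. Erythroid genes ran from *Hba-a2*, whose reads cannot be well told from those of its copy *Hba-a1*, at -2.89 to 0.51, and *Hba-a2* was the only gene of any list called with doxycycline (4.62, adjusted p = 0.00429).

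*Fkbp5* was next compared with each of the other genes tumor by tumor, after the mean of each group was subtracted so that neither genotype nor diet entered. Over the 12 tumors and 14108 genes with a mean of at least 1 CPM the deviations most like those of *Fkbp5* were those of *Zc3h7a* (Pearson r 0.934, Spearman rho 0.951), *Gm9001* (0.931, 0.825), *Mapk14* (0.924, 0.958), *Cd46* (0.889, 0.937) and *Mpc1* (0.882, 0.825). These are descriptions over 12 tumors that share library depth, handling and, in some cases, the mouse. Among the members *Nr3c1* was closest, with r 0.821 and rho 0.86 at place 37 of 14108, and then *Tsc22d3* with 0.471 and 0.531 at place 1385. The order went on with *Mt1* (0.398), *Errfi1* (0.348), *Per1* (0.247), *Zbtb16* (0.206), *Sgk1* (0.182), *Hsd11b1* (0.151) and *Klf9* (-0.168). Within groups, tumors with more *Fkbp5* thus had more *Nr3c1*, although between genotypes *Fkbp5* differed and *Nr3c1* was not shown to.

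**Figure D4:**
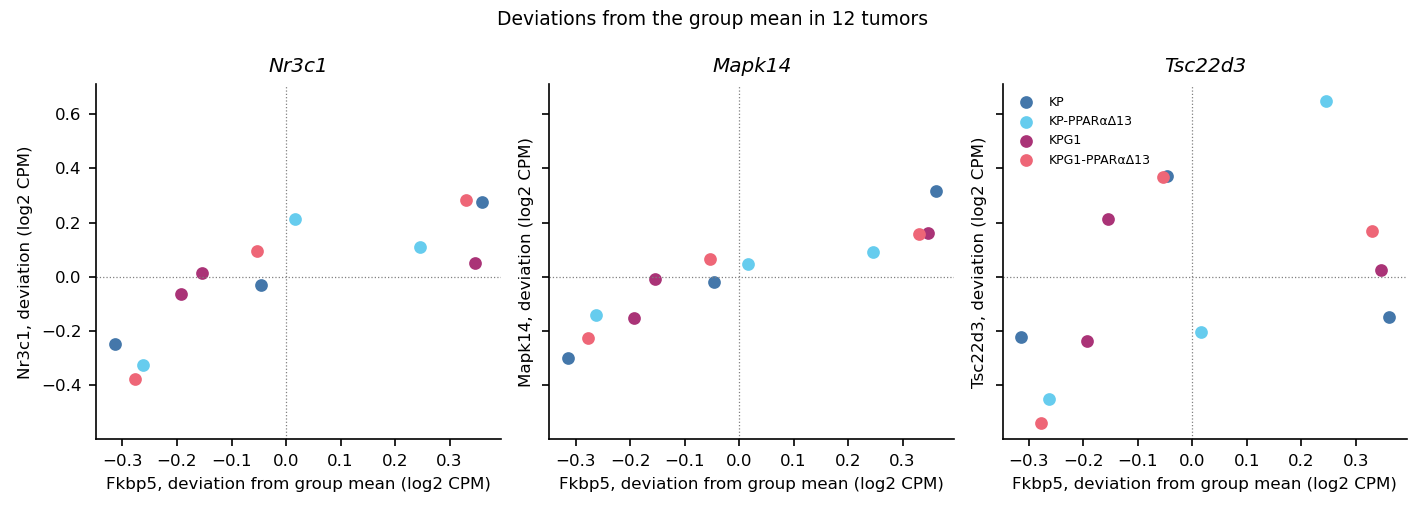
Deviation from the group mean in log2 CPM of *Nr3c1*, *Mapk14* and *Tsc22d3* (y axes) against that of *Fkbp5* (x axis) in the 12 tumors, colored by group. Points for *Nr3c1* (r 0.821) and *Mapk14* (r 0.924) rise with *Fkbp5*, and those for *Tsc22d3* (r 0.471) scatter more widely.

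The place of *Fkbp5* in the genome was examined last. Of the genes named above as most like it, *Mapk14* and *Mpc1* lie on the same chromosome, 17, which holds 711 of the 14109 genes with a mean of at least 1 CPM. *Mapk14* is 174 kb from *Fkbp5* and so among the neighbors counted next, and *Mpc1* is farther off and not among them. Of 38 genes within 500 kb of *Fkbp5* 23 were tested, of which 19 were lower in floxed tumors, against 52.2% of all genes. An unadjusted p under 0.05 by edgeR occurred for 4 of the 23, against 4.53% of all genes. None was called, where only 0.0484% of all genes were. The log2 fold changes of the 23 ran from -0.93 to 0.11 with a median of -0.29, so none reached the *Fkbp5* value. The gene at -0.93 had a mean of only 0.22 CPM, and among neighbors with a mean of at least 1 CPM the lowest value was -0.61. The nearest tested genes were *Tulp1*, at 0.11 (SE 1.11), and on the other side, 5.19 kb away, the noncoding *E230001N04Rik*, at -0.92 (SE 0.417, unadjusted p = 0.049, adjusted p = 0.976). *E230001N04Rik* was low as well, with a mean of 0.475 CPM. A gene that overlaps *Fkbp5* in the annotation had 0 counts. A look at whole chromosomes, chosen after these values were seen, gave a lower level in floxed tumors for 82.7% of 711 genes of chromosome 17 with a mean of at least 1 CPM, against 52.1% of 14109 genes of the genome, with a median of -0.19 that was the lowest of any chromosome; chromosome 18, which holds *Nr3c1*, had a median of -0.18. The median deviation of chromosome 17 genes was -0.41 to 0.17 in the 6 floxed tumors and -0.14 to 0.26 in the other 6, so the ranges overlapped. *Fkbp5* had the twelfth lowest log2 fold change of the 711 genes, and the part of the chromosome-wide shift in its value was not tested.

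**Figure D5:**
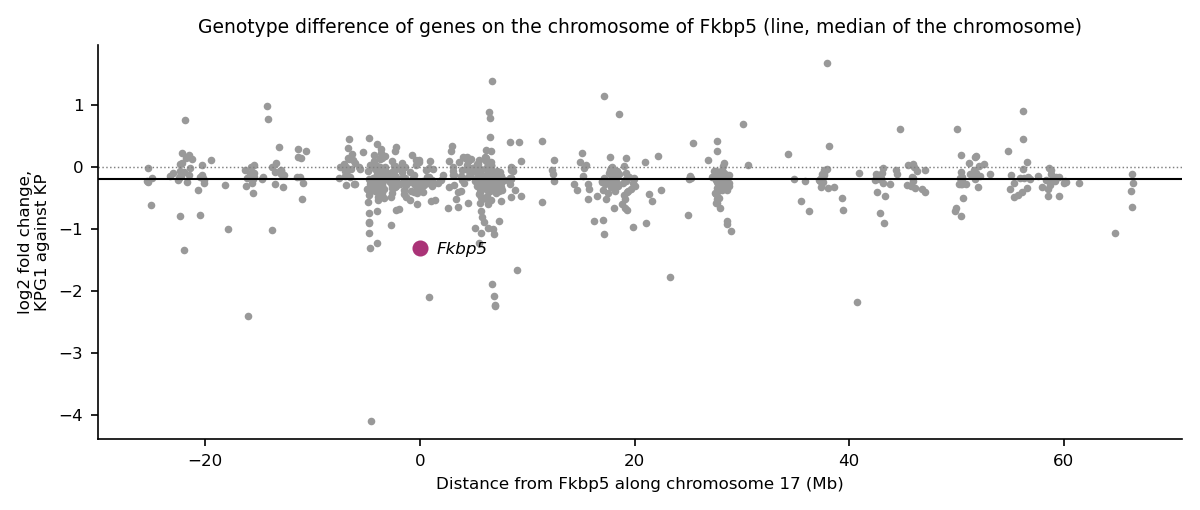
Log2 fold change between genotypes (y axis) of the 711 genes of chromosome 17 with a mean of at least 1 CPM, by distance from *Fkbp5* in Mb (x axis), with the chromosome median of -0.19 as a solid line. *Fkbp5* at -1.31 lies below the tested genes within 500 kb, and other genes of the chromosome are lower, such as *Pi16* at -2.10, named after its value was seen.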

How the data were processed

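RNA from the CD45-negative fraction of 12 lung tumors was sequenced by the authors with a stranded mRNA kit. After trimming with cutadapt and alignment with HISAT2 to mm10, the authors deposited raw counts per gene for each tumor and in a combined table; the submitters' processing notes name featureCounts 1.4.4, and the annotation is not given in the sources used here. The 12 files equalled the combined table, and a deposited table of log2 values was not used here. Groups, replicate numbers and sex came from the labels. All 37 mitochondrial genes are listed at 0, and 13548 of 39017 genes had no count in any tumor.

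Counts were fitted with edgeR 4.0.16 (R 4.3.3, TMM, filterByExpr by group, glmQLFit, glmQLFTest), all 12 tumors in one fit of 16527 genes with 8 residual degrees of freedom, and p-values were adjusted by Benjamini-Hochberg over all genes at a threshold of 0.05. Standard errors were obtained from the fold change and its F statistic, with 95% intervals from the fit's degrees of freedom. Deviations used log2 CPM with a prior count of 2. Positions and exon lengths came from GENCODE M21 (mm10), which held 96.61% of the identifiers, and promoter windows from RefSeq. Replicates of a group differed beyond sampling noise (chi-square over its degrees of freedom, at least 84.1). The fit was tested on simulated data with known changes.

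The members and gene lists were chosen with earlier results of these data known. Named genes are the 10 members, any listed gene called in a comparison, the highest and lowest genotype fold change of each list (3 each for the glucocorticoid and receptor lists), the 5 genes most like *Fkbp5* and the nearest tested neighbors. Alternatives were DESeq2 1.42.0, limma voom 3.58.1, upper-quartile and DESeq2 scaling, no filter, a mean of at least 20 TPM, a sex term, a replicate block, tumors of a mouse summed and leaving out each tumor. Sequence of the receptor gene's promoter is not printed.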

Additional observations from a re-analysis of the deposited data

Results flagged for a closer look

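*Zbtb16* reached 8.25 CPM in KP replicate 1, where the next of the 6 tumors without floxed *Glut1* was at 3.08 CPM and the lowest at 0.137 CPM, so that this tumor stood apart from the other 5 (gap over range 0.637, past Dixon's limit for 6 values). *Klf9* reached 83.6 CPM in KPG1 replicate 2, where the other 5 floxed tumors lay between 45.8 and 50.7 CPM (gap over range 0.869). These were 2 of 20 groups examined, of which chance alone flags about 1 in 20.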

How the results depend on the processing

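Of 621 values of the 10 genes under 21 alternatives, 571 kept their direction and their side of the threshold, 49 changed sign and 1, *Nr3c1* with doxycycline under DESeq2 (-0.57), came to pass it. *Fkbp5*, fitted in 20 of them because a mean of at least 20 TPM removes it, kept its direction with doxycycline and in the interaction. It did so between genotypes too, but that contrast chose the gene and already separated every tumor, so this gives no support of its own. Those 20 genotype values are among the 571, with no test given for them. The number of genes called between genotypes, 8, became 39 with DESeq2, 4 at a mean of at least 20 TPM, 5 with the replicate block, 3 with tumors of a mouse summed and 6 to 11 when a tumor was left out. With doxycycline the 3 calls became 286 with DESeq2, 5 with no filter and 2 to 13 when a tumor was left out (13 without KP-PPARαΔ13 replicate 3, 6 without KPG1-PPARαΔ13 replicate 1), and the members called went from 0 to 1 with DESeq2. For the interaction 0 became 286 with DESeq2. The cause was not tested.

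Sign changes were of values that passed no test. Between genotypes *Zbtb16* became 0.50 with limma voom and 0.024 with the replicate block and *Mt1* -0.36 with sex as a covariate; *Tsc22d3* with doxycycline became 0.073 with tumors of a mouse summed. The interaction of *Hsd11b1* became -0.014 with DESeq2 and with its size factors in edgeR, -0.038 with no filter and -0.37 with tumors of a mouse summed, and that of *Mt1* 0.32 with sex as a covariate. When a tumor was left out, the genotype values ran from -0.18 to 0.12 for *Tsc22d3*, -0.55 to 0.74 for *Zbtb16*, -0.78 to 0.019 for *Hsd11b1* and -0.22 to 0.61 for *Mt1*. Those that kept their sign ran from -0.45 to -0.05 for *Per1*, -0.94 to -0.38 for *Sgk1*, 0.09 to 0.34 for *Klf9*, -0.19 to -0.03 for *Nr3c1* and -0.29 to -0.06 for *Errfi1*. The doxycycline values ran from -0.24 to 0.071 for *Tsc22d3*, -0.29 to 0.13 for *Per1*, -1.05 to 0.60 for *Zbtb16*, -0.047 to 0.19 for *Klf9*, -0.22 to 0.021 for *Errfi1* and -0.73 to 0.09 for *Mt1*, and the interaction values from -0.76 to 0.27 for *Sgk1* and -0.40 to 1.10 for *Hsd11b1*.

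Same-numbered tumors shared only a number: the correlation of their deviations was over 0.1 in 2 of 18 pairs (range -0.19 to 0.127), and 4 of 12 tumors were closest to their own number. With the replicate block 5 genes were called between genotypes, 4 with doxycycline and 0 for the interaction, and no other call of a member changed. A common biological coefficient of variation of 0.44 with 3 tumors a group and shared mice limits what could be detected, most of all for *Zbtb16*, *Mt1* and *Hsd11b1*.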
